A study of Mus musculus with 6 samples.

Results

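The genes described here are the 9 Notch receptors and ligands of the mouse: the receptors Notch1, Notch2, Notch3 and Notch4, the Jagged ligands Jag1 and Jag2, and the Delta-like ligands Dll1, Dll3 and Dll4. They were found in the count table by their Ensembl identifiers, and all 9 of them are among its 46983 genes. RNAseq had been performed on GFP+ neural crest cells (NCCs) sorted from E11.25 mouse embryos, with 3 control and 3 samples deficient in BAF155 and BAF170. Controls were Wnt1Cre/+; BAF155 flox/+; BAF170 flox/+; Rosa26 mTmG/+, and the deficient embryos, likewise Wnt1Cre/+ and Rosa26 mTmG/+, were flox/flox for BAF155 and for BAF170. Both groups therefore carried Cre, the reporter and at least a single floxed allele of each gene, so by genotype a homozygous floxed state was set against a heterozygous one. Cre under Wnt1 control is active in premigratory neural crest and dorsal neural tube, and it switches the Rosa26 reporter from membrane Tomato to membrane GFP. BAF155 and BAF170, encoded by Smarcc1 and Smarcc2, are core scaffold subunits of the BAF chromatin remodeling complex.

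Notch signaling passes between touching cells. A Jagged or Delta-like ligand on the sending cell pulls on a Notch receptor on the receiving cell, proteases release the intracellular domain of the receptor, and this domain joins Rbpj and Mastermind-like proteins in the nucleus to switch on genes of the Hes and Hey families. Dll3 differs from the other ligands in that it resides largely inside the cell and does not activate receptors on neighbors. In the neural crest, Notch signaling is known for its part in glial and neuronal fate and in smooth muscle of the pharyngeal arch arteries, where Jag1 and Notch3 act.

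The libraries held 8191219 to 19808620 counts, with 8191219 to 11661941 in controls and 12633319 to 19808620 in deficient samples. Smarcc1 was at 42.1, 55.0 and 35.1 CPM (counts scaled to library size with TMM factors, which set the typical gene to the same level in each library) in controls and at 29.4, 26.4 and 24.5 CPM in deficient samples, a log2 fold change of −0.71 ± 0.16 (SE; edgeR adjusted p = 0.068). Smarcc2 was at 89.9 to 92.9 CPM in controls and at 82.3 to 86.8 CPM in deficient samples (log2 fold change −0.11 ± 0.058, SE; edgeR adjusted p = 0.251). Loss of either transcript is thus not shown in these libraries: Smarcc1 was lower but far from absent, and Smarcc2 did not pass the test. Counts over whole genes do not show the floxed exons on their own. The deficient group is therefore named throughout by its label. The labelled cell type was then set against marker lists. The 12 macrophage markers together reached 12947 to 14983 CPM in controls and 15107 to 16487 CPM in deficient samples, whereas the 56 markers of embryonic crest, neuron and neural tube together reached 214 to 420 CPM and 133 to 205 CPM. By these markers the libraries were dominated by macrophage RNA. Single embryonic markers ran from Nes, at 354 to 522 counts in a library, to S100b, at 0 to 6, with Sox10 at 14 to 58. Neither marker sum overlapped between the groups. In bulk samples of this kind, fewer cells of a type and less RNA per cell cannot be told apart. The part of the macrophage or embryonic share in the values below was not tested beyond the scalings and ratios given.

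Promoter sequences were read to show what the members have in common upstream, and 3 are printed because they share a short motif while only Dll3 among their genes was called. All 9 members had a promoter in RefSeq on GRCm38.p6, taken as 250 bases before to 50 bases after the annotated start, and Dll1 had a pair of them, which gave 10. The capitals mark CAGCTG, a palindromic E-box read by basic helix-loop-helix factors. It lies 7 bases before the start in Dll3 (chr7:28301736-28302035, minus strand), 132 bases before the start of the upstream Dll1 promoter (chr17:15376883-15377182, minus strand) and 82 bases before the start in Jag1 (chr2:137116471-137116770, minus strand).
Dll3: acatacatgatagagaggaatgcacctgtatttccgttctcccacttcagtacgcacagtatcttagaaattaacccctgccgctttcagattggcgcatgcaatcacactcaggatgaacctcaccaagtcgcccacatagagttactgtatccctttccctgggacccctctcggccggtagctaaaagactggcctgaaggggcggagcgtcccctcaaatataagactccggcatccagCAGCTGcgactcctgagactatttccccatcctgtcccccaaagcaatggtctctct
Dll1: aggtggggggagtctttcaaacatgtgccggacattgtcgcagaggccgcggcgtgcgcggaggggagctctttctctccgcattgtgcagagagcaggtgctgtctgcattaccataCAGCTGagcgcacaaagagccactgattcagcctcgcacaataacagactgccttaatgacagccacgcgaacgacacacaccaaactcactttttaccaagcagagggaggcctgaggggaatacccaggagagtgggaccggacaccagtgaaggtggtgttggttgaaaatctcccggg
Jag1: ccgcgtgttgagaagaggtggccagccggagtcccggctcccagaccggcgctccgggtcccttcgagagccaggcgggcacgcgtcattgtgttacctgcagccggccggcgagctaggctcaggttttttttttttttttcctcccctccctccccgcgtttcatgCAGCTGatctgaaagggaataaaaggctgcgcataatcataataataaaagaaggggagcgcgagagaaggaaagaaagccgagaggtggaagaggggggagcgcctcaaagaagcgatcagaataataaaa
CAGCTG was present in 16.3% of all 32851 promoters of the same length. The core of the Rbpj motif, TGGGAA, was searched on both strands and was in none of the 10 member promoters, against 25.6% of all promoters. The E-box CAGATG was in none of them either, against 17.2% of all. No match overlapped another motif. Of the 10 promoters, 9 held more CpG than the median of all promoters, which was 7, and 6 held more than the upper quartile of 20. Jag2 had 63 CpG, Notch2 41, Notch3 25, Notch1 23 and Jag1 22, and the Dll1 promoters had 24 and 15. Dll4 had 17, Dll3 11 and Notch4 5.

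To compare the genes with each other, levels were divided by the length of their merged exons. Notch2 was the most abundant at 9.90 CPM per kilobase (mean of 6 libraries), followed by Notch1 at 7.01 and Jag1 at 6.87 CPM per kilobase. Notch3, Dll1 and Dll3 formed a middle group at 2.94, 2.32 and 1.87 CPM per kilobase. Dll4 at 0.361, Jag2 at 0.310 and Notch4 at 0.108 CPM per kilobase were the lowest. The ranges of neighbors overlapped for Notch1 and Jag1, among Notch3, Dll1 and Dll3, and for Jag2 with Dll4 and with Notch4, whereas Notch2 stood above all others in each library. With the length of the longest coding transcript in place of merged exons, which was tried after seeing the data, Notch1 was at 10.5 and Notch2 at 10.2 CPM per kilobase, and Jag2 at 0.423 and Dll4 at 0.371, so the order within these pairs depends on the transcript taken.

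The question of the comparison was which receptors and ligands differed between libraries labelled deficient and control. Dll3, which fell, was the only member called, where a call needed an edgeR adjusted p (Benjamini-Hochberg over all genes tested) no higher than 0.1, a log2 fold change of 0.58 or more in either direction and 2 CPM or more on average. Of 13961 genes tested, 4.88% were called lower and 0.0573% were called higher, 4.94% in all, and 11.9% reached the adjusted p alone. All 9 members passed the filter on low counts, but Notch4 and Dll4 averaged 0.874 and 1.39 CPM, too low for a call. Of the 9 members, 1 was called lower and 0 were called higher. None of the other 8 members reached the adjusted p of at most 0.1 in edgeR, and none of them reached an unadjusted p under 0.05. Their median log2 fold change, Dll3 included, was −0.12, beside −0.02 over all genes tested. The groups did not overlap for 1 of 9 members, against 31.4% of genes tested, of which 16.4% of genes tested had all deficient libraries below all controls.

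**Figure D1:**
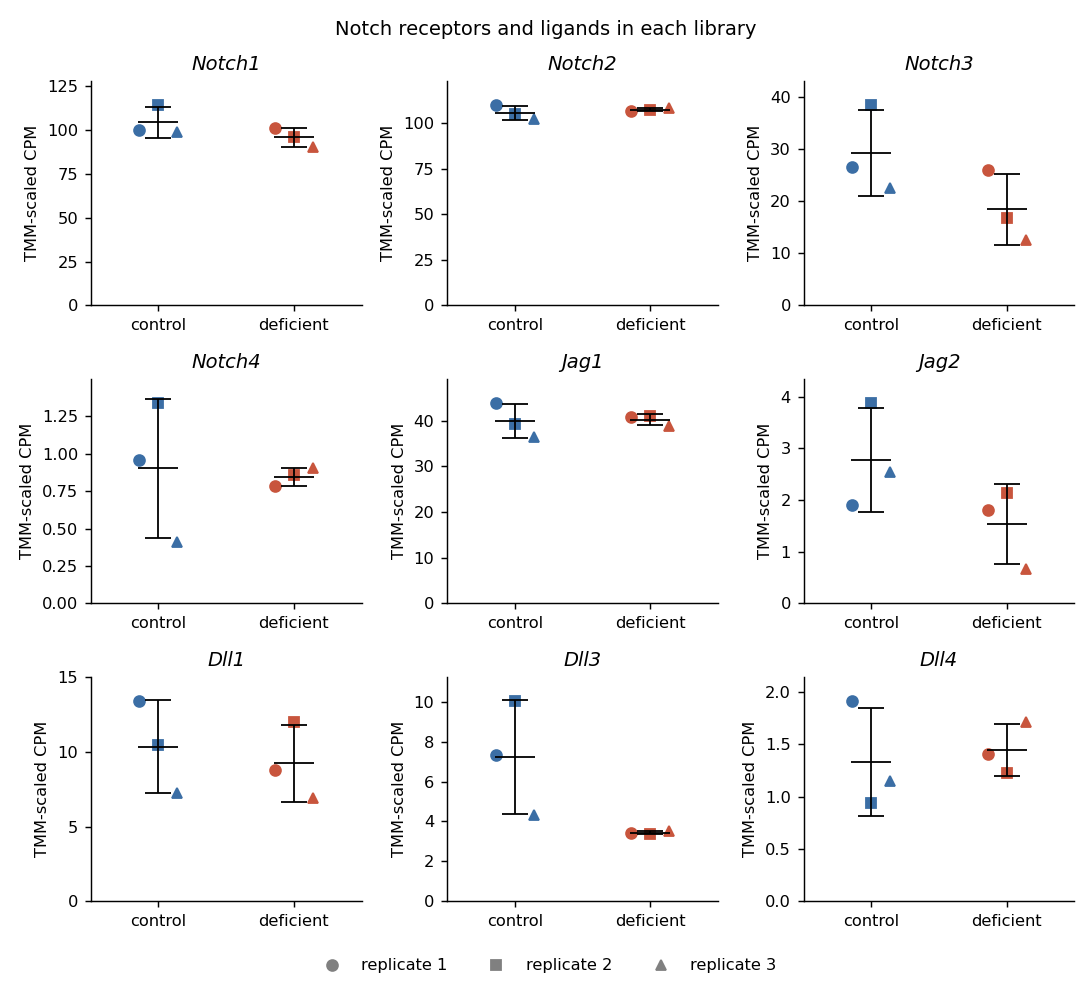
Level of each receptor and ligand in TMM-scaled CPM (vertical axes, each from 0) in 3 control (blue) and 3 deficient (red) libraries. Marker shapes give the replicate, and black bars give the mean and SD. Only for Dll3 did all deficient libraries, at 3.36 to 3.51 CPM, sit below all controls, at 4.35 to 10.03 CPM.

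Among the receptors, Notch1, the widely expressed receptor of neural progenitors and blood cells, was at 99.8, 114 and 98.5 CPM in controls and at 101, 95.7 and 89.9 CPM in deficient samples. The groups overlapped, and the highest control was replicate 2. The log2 fold change was −0.12 (95% interval −0.28 to 0.04; edgeR adjusted p = 0.306). Notch2, which is expressed in monocytes and macrophages as well as in mesenchyme, was at 110, 105 and 102 CPM in controls and at 107, 107 and 109 CPM in deficient samples. Its groups overlapped and the log2 fold change was 0.02 (95% interval −0.10 to 0.15; edgeR adjusted p = 0.833), so the interval allows no change as large as the fold required for a call.

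Notch3, the receptor of vascular smooth muscle and pericytes, was at 26.5, 38.4 and 22.6 CPM in controls and at 25.9, 16.8 and 12.5 CPM in deficient samples. Deficient replicate 1 lay among the controls, and the other 2 deficient libraries were below all of them. The log2 fold change of −0.67 had a 95% interval of −1.52 to 0.19 and did not pass the test (edgeR adjusted p = 0.273). Without deficient replicate 1 it was −0.98 and was called (edgeR adjusted p = 0.083). DESeq2 gave an adjusted p of 0.053 on all libraries. Without control replicate 2 the change was −0.43 (edgeR adjusted p = 0.574). Over all genes, these fits called 1030, 874 and 61 genes lower, in that order, against 681 in edgeR with all libraries. The sum of the mural markers, those of smooth muscle and pericytes, was 51.2 to 63.0 CPM in controls and 45.1 to 49.0 CPM in deficient samples. Of 7 tested mural markers only Pdgfrb was called lower, with means of 9.86 CPM in controls and 4.86 CPM in deficient samples. The other 6 did not pass the adjusted p, and the part of mural cells in the Notch3 values was not tested. Notch4, the endothelial receptor, was covered by 5 to 19 counts in a library, at 0.957, 1.34 and 0.410 CPM in controls and at 0.783, 0.855 and 0.902 CPM in deficient samples. With a 95% interval of −1.13 to 1.11 on the log2 scale, a change of Notch4 was not detectable at this depth. The 12 endothelial markers together were at 285 to 320 CPM in controls and 325 to 351 CPM in deficient samples. Most of it came from Kdr (mean 184 CPM) and Eng (mean 114 CPM). Flt1 was at 51 to 209 and Pecam1 at 40 to 126 counts in a library. Of the 12, 5 did not pass the filter on low counts, among them Tek and Sox17 at 0 to 8 counts.

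Jag1, the ligand that acts in arch artery smooth muscle, was at 43.8, 39.3 and 36.4 CPM in controls and at 40.7, 41.1 and 38.8 CPM in deficient samples. All 3 deficient values lay within the range of the controls. The log2 fold change was 0.01 (95% interval −0.17 to 0.19; edgeR adjusted p = 0.934). Jag2 was at 1.91, 3.88 and 2.54 CPM in controls and at 1.80, 2.14 and 0.665 CPM in deficient samples, on 14 to 35 counts. Deficient replicates 1 and 3 lay below all controls and replicate 2 among them. Its log2 fold change of −0.87 had a 95% interval of −1.84 to 0.11 and did not pass the test (edgeR adjusted p = 0.232). With a replicate block it was −0.95 and was called (edgeR adjusted p = 0.0987), although the replicate numbers were not found to pair the samples. The replicate block called 1143 of all genes lower, against 681 without it. The change of Jag2 ran from −1.22 to −0.47 with a library left out, the latter without deficient replicate 3, and was −0.58 without control replicate 2.

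Dll1, a ligand of neurogenic tissue, was at 13.4, 10.4 and 7.22 CPM in controls and at 8.77, 11.98 and 6.93 CPM in deficient samples. The spread within each group was larger than the distance between their means, 10.4 ± 3.09 and 9.23 ± 2.55 CPM (SD, n = 3). The log2 fold change was −0.16 (95% interval −0.75 to 0.43; edgeR adjusted p = 0.736). Dll4, the ligand of arterial endothelium, was at 1.91, 0.936 and 1.15 CPM in controls and at 1.41, 1.22 and 1.71 CPM in deficient samples, on 7 to 36 counts. Its groups overlapped, and the log2 fold change was 0.12 (95% interval −0.73 to 0.97; edgeR adjusted p = 0.876).

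Dll3, which marks newly formed neurons as well as presomitic mesoderm, was at 7.34, 10.03 and 4.35 CPM in controls and at 3.45, 3.36 and 3.51 CPM in deficient samples. The deficient libraries lay close together below all controls, and the controls were spread, with replicate 3 nearest to the deficient group. The counts behind these values were 69, 75 and 53 in controls and 44, 55 and 74 in the larger deficient libraries. Counting error alone at such counts exceeds the spread of the deficient values, so their closeness is not read as a result. The means were 7.24 ± 2.84 and 3.44 ± 0.077 CPM (SD, n = 3), the log2 fold change was −1.05 ± 0.28 (SE; 95% interval −1.67 to −0.43), and the adjusted p of edgeR was 0.077. Its call did not hold without control replicate 1 (edgeR adjusted p = 0.245) or control replicate 2 (edgeR adjusted p = 0.250). Nor did it hold without deficient replicate 2 (edgeR adjusted p = 0.143) or deficient replicate 3 (edgeR adjusted p = 0.224). Over all genes, these fits called 0, 61, 219 and 17 genes lower, in that order, against 681 with all libraries. The log2 fold change of Dll3 ran from −1.33 to −0.75 over all 6 omissions.

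**Figure D2:**
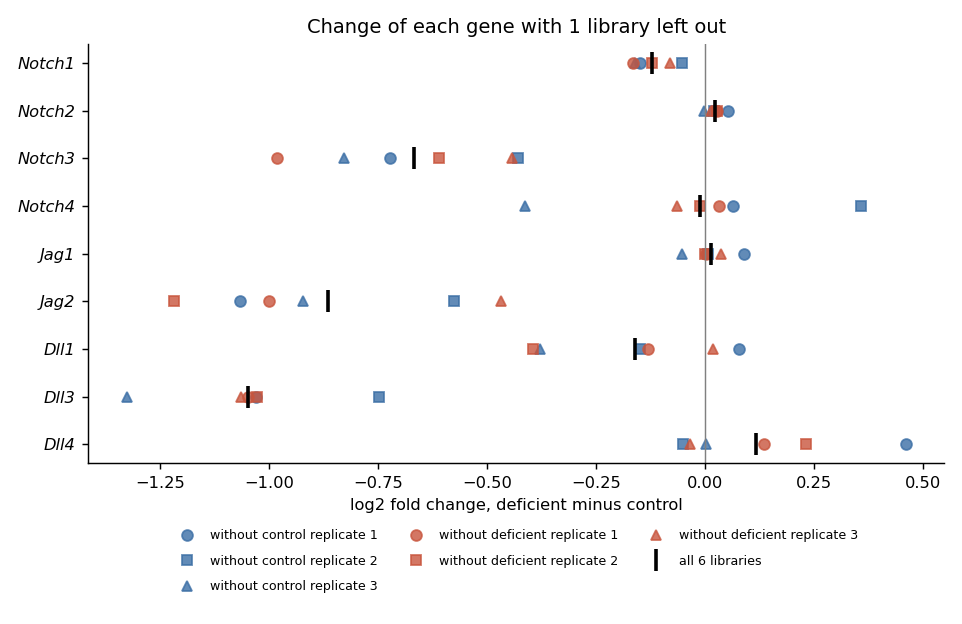
Log2 fold change of each gene (horizontal axis, deficient minus control) with all 6 libraries (black bar) and with 1 library left out (blue for a control, red for a deficient library, marker shape for the replicate). Dll3 stays between −1.33 and −0.75 and Notch3 between −0.98 and −0.43, whereas Notch4 runs from −0.41 to 0.36.

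The makeup of the receptor and ligand pools was compared next, since shares of length-scaled levels within a library need no scaling between libraries. Notch1 held 35.1% ± 0.98 of receptor levels in controls and 35.2% ± 0.38 in deficient samples (SD, n = 3). Notch2 held 47.3% ± 3.67 and 52.5% ± 3.56, and Notch3 held 17.1% ± 3.38 and 11.8% ± 3.67, with overlapping groups in both. Of the ligand levels, Jag1 held 55.0% ± 6.00 in controls and 63.5% ± 2.96 in deficient samples, and Dll1 held 19.2% ± 3.00 and 19.9% ± 4.05. Dll3 held 19.8% ± 5.62 and 11.1% ± 1.07, with 15.03 to 25.99% in controls and 10.1 to 12.2% in deficient samples, and it was the only one of the 9 whose share did not overlap between groups.

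**Figure D3:**
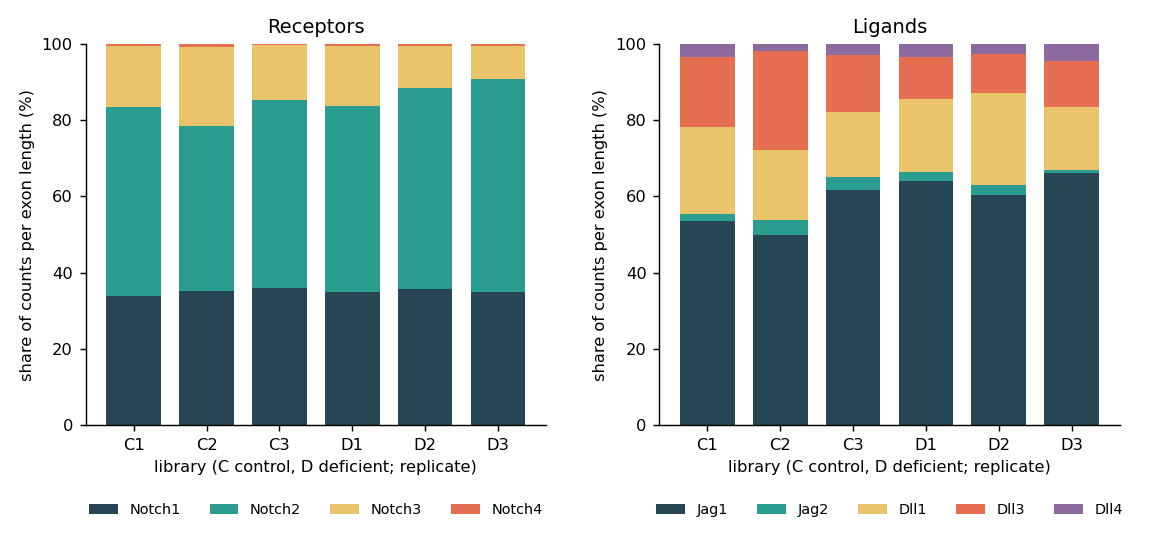
Share of each receptor (left) and each ligand (right) in the summed counts per exon length of its class, in percent, in each control (C) and deficient (D) library. Dll3 takes 15.03 to 25.99% of the ligand levels in controls and 10.1 to 12.2% in deficient libraries.

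Ratios between members were also tested, with 0.5 counts added, in 7 comparisons by exact two-sided permutation tests, which cannot give a p below 0.1 with 3 samples against 3. Notch3 relative to Notch1 was 26.5, 33.7 and 22.9% of the Notch1 counts in controls and 25.6, 17.5 and 13.9% in deficient samples (log2 difference −0.57; exact permutation p = 0.2, adjusted p = 0.7). Jag2 relative to Jag1 was 4.37, 9.86 and 6.98% in controls and 4.42, 5.21 and 1.71% in deficient samples (log2 difference −0.97; exact permutation p = 0.3, adjusted p = 0.7). Summed ligands were 28.8, 24.9 and 23.1% of summed receptors in controls and 23.9, 27.1 and 24.4% in deficient samples (log2 difference −0.02; exact permutation p = 0.8, adjusted p = 0.9). Each of the 7 ratios overlapped between the groups.

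The members were then set against marker levels of the same library. Relative to the embryonic marker sum, Notch1 was at 32.7, 27.1 and 45.9% in controls and at 49.2, 62.0 and 67.6% in deficient samples (log2 difference 0.78; exact permutation p = 0.1, adjusted p = 0.3 over 21 comparisons). Notch2 and Jag1 also lay above the controls in all deficient samples on this measure, by 0.92 each on the log2 scale (exact permutation p = 0.1, adjusted p = 0.3). In CPM these 3 genes differed by −0.12 to 0.02 on the log2 scale, while the embryonic sum had a log2 difference of −0.93. The embryonic sum did not overlap between the groups, so any gene with equal CPM in all libraries would lie apart on this measure. How many of all genes lie apart on it was not counted. Dll3 was at 2.40, 2.39 and 2.03% of the embryonic sum in controls and at 1.68, 2.18 and 2.64% in deficient samples, which overlapped (log2 difference −0.09; exact permutation p = 0.8). Notch3 was at 8.67, 9.14 and 10.5% of it in controls and at 12.6, 10.9 and 9.43% in deficient samples, which overlapped too (log2 difference 0.21; exact permutation p = 0.2).

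Relative to the macrophage marker sum, Dll3 and Jag2 lay below all controls in every deficient sample. This sum was higher in every deficient sample, so a gene with equal CPM throughout would lie below all controls here. In CPM, the groups lay apart for Dll3 and overlapped for Jag2. How many of all genes lie apart on this measure was not counted. Dll3 was at 0.0534, 0.0775 and 0.0290% of the macrophage sum in controls and at 0.0228, 0.0213 and 0.0213% in deficient samples (log2 difference −1.18; exact permutation p = 0.1, adjusted p = 0.3). The log2 difference of Jag2 was −1.15 (exact permutation p = 0.1, adjusted p = 0.3). Notch2 overlapped, with 0.801, 0.814 and 0.684% in controls and 0.706, 0.681 and 0.659% in deficient samples (log2 difference −0.16; exact permutation p = 0.2). Jag1 differed by −0.17 and Notch1 by −0.31 on the log2 scale, with overlapping groups. None of the 21 comparisons had an adjusted p below 0.3, and 0.1 is the smallest raw p that the design allows.

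**Figure D4:**
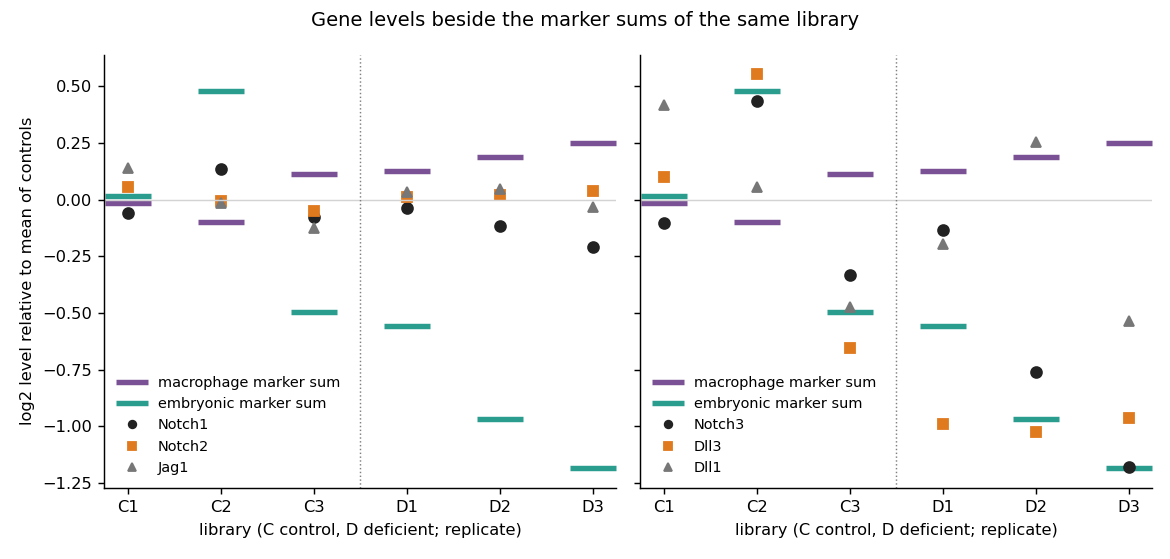
Log2 level of 6 members (markers) and of the macrophage and embryonic marker sums (bars) in each library, relative to the mean of the controls. Notch1, Notch2 and Jag1 (left) stay near 0 while the embryonic sum has a log2 difference of −0.93 between the groups. Notch3 and Dll3 (right), Notch1 (left) and the embryonic sum are highest in control replicate 2, whereas Dll1 (right) is highest in control replicate 1.

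The libraries were also scaled to the level of 31 embryonic markers, those of the 43 tested with a mean of at least 2 CPM. The median of all genes then shifted to 0.88 on the log2 scale, and 59.3% of genes were called higher and 0.372% lower. Dll3 was then at a log2 fold change of −0.04 (edgeR adjusted p = 0.940) and Notch3 at 0.24 (edgeR adjusted p = 0.602), both below that median. Notch2 at 0.93, Jag1 at 0.92 and Dll1 at 0.78 lay near it and were called higher. Dll4 at 1.04 (edgeR adjusted p = 0.061) missed a call only by its low mean CPM. When the libraries were scaled to the 12 macrophage markers, the median of all genes was −0.20 and 4.47% of genes were called lower. Dll3 was called lower at −1.26 (edgeR adjusted p = 0.095), and Notch2 at −0.16 and Jag1 at −0.17 lay near that median.

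**Figure D5:**
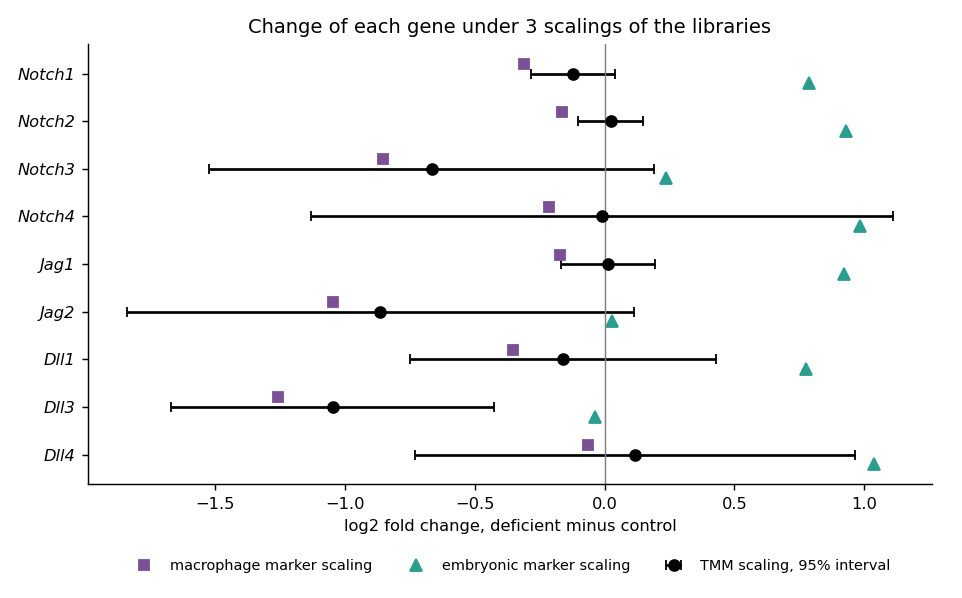
Log2 fold change of each gene (horizontal axis, deficient minus control) with TMM scaling (black, 95% interval), with scaling to macrophage markers (squares) and with scaling to embryonic markers (triangles). Under the embryonic scaling Dll3 sits at −0.04 and Notch2 at 0.93, where the median of all genes is 0.88.

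The genes with the most similar profiles over the 6 libraries were named for each member with a mean of at least 2 CPM, by the root mean square distance of centered log2 CPM among 10950 protein-coding candidates. For Dll3 these were Sulf2, a heparan sulfate 6-O-endosulfatase (distance 0.054), Samd14 (0.079) and Efna2, an ephrin (0.085). For Notch3 they were Nckap1 (0.054), Top2a, the topoisomerase of dividing cells (0.072), and Zfp334 (0.085). For Notch1 they were Nomo1, Ppp2r5e and Ube2g1 (0.027 to 0.029), for Notch2 Vezt, Cic and Arid5b (0.012 to 0.017), and for Jag1 Pik3c2a, Btbd1 and Wipi2 (0.022 to 0.035). For Jag2, Pard3b, Ap3b2 and Robo2 were at larger distances (0.136 to 0.186), and for Dll1, Ltbp4, Zfp36l1 and Zfp141 at 0.080 to 0.107. Among the members themselves Notch2 and Jag1 were nearest to each other (0.057), and Notch1 was nearest to Notch2 (0.118).

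Of 54 other genes of the pathway, 45 were tested, of which 6 (13.3%) were called lower and 1 (2.22%) higher, beside 4.88% and 0.0573% of all genes tested. Of the 6, 3 were among the 4 tested ligand-like genes with EGF repeats or microfibril association. The glycosylation list, the endocytosis and ubiquitin list and the nuclear complex list held 1 each. As the list was chosen with earlier results of these data known, no excess over all genes is read from this share. In edgeR, 0 pathway genes were called when either control replicate 1 or 2 was omitted (8 lower and 6 higher at an unadjusted p under 0.05 in each case) and 0 when deficient replicate 3 was omitted (10 lower and 4 higher). Omitting control replicate 3 gave 9 called lower, and omitting deficient replicates 1 and 2 gave 4 and 2. Over all genes, omitting control replicates 1, 2 and 3 gave 0, 61 and 1219 called lower. Omitting deficient replicates 1, 2 and 3 gave 1030, 219 and 17 of all genes. Macrophage marker scaling gave 3 (6.67%) lower and 0 higher (17 and 2 at an unadjusted p under 0.05), beside 4.47% of all genes lower. Embryonic marker scaling gave 0 lower and 25 (55.6%) higher (0 and 24 at an unadjusted p under 0.05), beside 0.372% and 59.3% of all genes. The median of the 45 genes on the log2 scale was −0.01, beside −0.02 over all genes tested. Among the proteases that cut the receptor, Psenen, a subunit of gamma-secretase, rose (13.2 ± 3.00 CPM in controls and 20.4 ± 3.42 CPM in deficient samples, SD, n = 3; log2 fold change 0.61, edgeR adjusted p = 0.086). Ncstn, another subunit, and Furin, which cuts the receptor on its way to the surface, passed the adjusted p at a log2 fold change of 0.23 each (edgeR adjusted p = 0.078 and 0.089), below the fold required for a call. The macrophage marker sum was higher in the same libraries, without overlap, by 0.19 on the log2 scale, and its part in these values was not tested beyond the scaling. Under macrophage marker scaling Psenen was at 0.44 and was not called (edgeR adjusted p = 0.147). Of the enzymes that put sugars on the receptor, Mfng fell from 4.198 ± 1.70 to 1.46 ± 0.30 CPM (log2 fold change −1.51, edgeR adjusted p = 0.062), while Poglut1 and Pofut1 were at 0.04 and 0.07 (edgeR adjusted p = 0.748 and 0.615).

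Among genes of endocytosis and ubiquitin transfer, Numbl, a relative of the Notch inhibitor Numb, fell by 0.72 on the log2 scale (edgeR adjusted p = 0.087). The Deltex relatives Dtx3l and Dtx2 were at 0.23 and 0.18 (edgeR adjusted p = 0.093 and 0.125). In the nuclear complex, the corepressor Tle1 fell by 0.67 (edgeR adjusted p = 0.053), while Rbpj was at 0.14 and the acetyltransferase Ep300 at −0.10 (edgeR adjusted p = 0.209 and 0.454). Of ligand-like proteins with EGF repeats or microfibril association, Dlk1 fell by 1.19, Mfap2 by 1.21 and Dner, a neuronal protein, by 1.10 (edgeR adjusted p = 0.098, 0.083 and 0.0998).

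Of the 7 target genes of the Hes and Hey families and Nrarp, 4 were tested and 0 passed the adjusted p in edgeR, with an unadjusted p under 0.05 for Hes5 and Heyl. The mean was lower in deficient samples for 4 of 4, at a median of −1.01 on the log2 scale, and for 3 of 4 all deficient libraries lay below all controls, against 16.4% of genes tested. Hes5 was at 1.66 ± 0.31 and 0.650 ± 0.39 CPM (SD, n = 3; log2 fold change −1.39, edgeR adjusted p = 0.103), and Hes1 at 2.22 ± 0.30 and 1.39 ± 0.31 CPM (log2 fold change −0.69, edgeR adjusted p = 0.208). Heyl was at 3.36 ± 2.09 CPM in controls and 1.30 ± 0.45 CPM in deficient samples (SD, n = 3; log2 fold change −1.32, edgeR adjusted p = 0.107), and Hey1 was at 2.24 ± 0.66 and 1.60 ± 0.15 CPM (log2 fold change −0.45, edgeR adjusted p = 0.406). The 4 genes were covered by 7 to 43 counts in a library. The embryonic marker sum given above was also lower in deficient samples. Mfng, Tle1, Numbl, Dlk1, Mfap2 and Dner were called lower with TMM scaling and not with embryonic marker scaling. The 4 targets were called under neither scaling. Hes1, Hes5 and Hey1 averaged 1.80, 1.16 and 1.92 CPM, below the 2 CPM that a call needs, so a call was not possible for them. The part of the embryonic share in these values was not tested beyond the scaling.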

How the data were processed

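RNAseq of sorted GFP+ cells, labelled as NCCs, was analysed in 3 samples labelled control and 3 labelled as deletion of BAF155 and BAF170. The authors deposited raw counts per gene, without normalization. Per the labels, libraries were strand-specific and made from poly(A) RNA, and the submitters' processing notes name FastQC 0.11.7, cutadapt 1.18, STAR, featureCounts and limma with GRCm38. The strand setting and the treatment of reads mapping to several places are not given in the sources used here. Genes overlapping a member's exons on either strand held at most 12 counts in a library, and paralogues could share reads. Nothing was excluded among the value columns.

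Identifiers were joined, without their version, to GENCODE mouse release 21 (46488 of 46983 genes, 37902 with the same version). Unmatched genes held 0.0558 to 0.0706% of a library's counts. The test was run with edgeR 4.0.16 in R 4.3.3, with filterByExpr (minimum count 10, minimum total 15), TMM and a robust quasi-likelihood fit with group as its only term, which tested 13961 genes. The common biological coefficient of variation was 12.8%. CPM used TMM-scaled library sizes. Calls followed the study's thresholds, which are an adjusted p no higher than 0.1, a log2 fold change of 0.58 or more in either direction and 2 CPM or more on average. The study's limma is an alternative here (limma 3.58.1, voom), as are DESeq2 1.42.0, other filters and scalings, a replicate block, a correction for a lowess trend on exon length (span 0.3), a threshold of 0.05 and leaving out each library. On simulated data for deficient against control (13754 genes), the fit recovered 95% of the genes given a simulated log2 fold of 1 and 93% of those given 2, with 8 false calls. Every simulated gene had the common variation above, without differences in cell makeup between libraries. These shares therefore do not give the power for members with more spread, such as Notch3, Jag2 and Dll3 (SE 0.34, 0.44 and 0.28). A member that was not called is not thereby shown to be unchanged. p-values measure the spread between these samples.

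The genes named are all members, Smarcc1 and Smarcc2, pathway genes that passed the adjusted p or were the 2 most abundant of their role, and the 3 genes most like each member. A gene that the rule names is not reported here. Other genes named are markers picked after their values were seen, as were Hes1, Hes5 and the promoters printed. The alternatives for pathway genes were added after seeing the data. Members and lists were chosen with earlier results of these data known. Marker lists had summed levels in controls and deficient samples of 285 to 320 and 325 to 351 CPM (endothelial), 17.5 to 22.7 and 23.9 to 27.5 CPM (neutrophil) and 16.2 to 60.3 and 9.84 to 15.3 CPM (erythroid). The embryonic markers comprise mesenchymal crest (67.9 to 112 and 32.6 to 55.1 CPM), sensory neuron (42.3 to 116 and 27.7 to 39.9 CPM), autonomic (7.06 to 18.5 and 5.03 to 6.42 CPM), glial crest (25.1 to 53.6 and 18.2 to 25.5 CPM) and neural tube lists (72.0 to 120.0 and 46.0 to 78.4 CPM). Figures and summaries used matplotlib 3.10.9, pandas 2.3.3, scipy 1.17.1 and numpy 2.4.6 in Python 3.11.15. Protein sequences were not used here.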

Additional observations from a re-analysis of the deposited data

How the results depend on the processing

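Dll3 was lower in all 15 alternatives run for it and passed the adjusted p in 10 of them. Members called lower were 2 with DESeq2 (Dll3 and Notch3), 2 with the replicate block (Dll3 and Jag2), 0 at an adjusted p of at most 0.05 and 0 with embryonic marker scaling, which called 3 higher, and they ran from 0 to 2 with a library left out. Over all 13961 genes tested, 681 were called lower and 8 higher, and DESeq2 called 874 lower and 15 higher. Calls higher were 33 with no low-count filter, 5 at a minimum count of 30 and 0 with macrophage marker scaling. The replicate block gave 1143 lower and 21 higher, embryonic marker scaling 52 lower and 8285 higher, and an adjusted p of at most 0.05 gave 94 lower and 0 higher. With a library left out they ran from 0 to 1219 lower and from 0 to 45 higher. Without control replicate 1, edgeR called 0 genes, with 2547 at an unadjusted p under 0.05, and no other tool was run on those libraries. Leaving out control replicate 2 gave 61 genes called lower, and leaving out control replicate 3 gave 1219. Leaving out deficient replicates 1, 2 and 3 gave 1030, 219 and 17. Same-numbered samples correlated at 0.03, −0.03 and 0.29 in their deviations from the group means, and only the samples numbered 3 correlated best with their own number, so the pairing was not taken as given.

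Directions reversed on the log2 scale as follows, and the cause was not tested. Notch4 was at 0.14 with limma-voom, 0.065 with library totals, 0.033 with no low-count filter, 0.029 with the replicate block, 0.98 with embryonic scaling and 0.14 with the length correction. Embryonic scaling gave 0.79 for Notch1, 0.24 for Notch3, 0.028 for Jag2, 0.78 for Dll1, 0.25 for Numbl and 0.27 for Tle1. Each of these values lay below the median of all genes under that scaling, 0.88. Macrophage scaling gave −0.16 for Notch2, −0.17 for Jag1 and −0.065 for Dll4, where the median of all genes was −0.20. A minimum count of 30 gave −0.0015 for Notch2 and −0.010 for Jag1 and left out Notch4, Jag2 and Dll4, and the length correction gave 0.15 for Notch1. With a library left out, the range was −0.41 to 0.36 for Notch4, −0.39 to 0.079 for Dll1, −0.050 to 0.46 for Dll4, −0.0020 to 0.053 for Notch2 and −0.051 to 0.090 for Jag1. Counts of 5 to 36 in a library limit Notch4, Jag2 and Dll4.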
